A study of Mus musculus with 4 samples.

Results

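*Cyr61*, *Ctgf*, *Thbs1*, *Ankrd1* and *Amotl2* are genes that the transcriptional coactivator YAP is widely reported to switch on, and their transcripts were counted here in single cells sorted as endothelium from the mouse aorta. The 5 genes were chosen by symbol, for this reported role, out of 16408 genes listed in the count tables. All 5 were listed, and UMIs (unique molecular identifiers, which mark each captured transcript once) were found for 4 of them in every mouse. *Ankrd1* had UMIs in 1 mouse only. *Cyr61* was the most abundant of the 5 in every mouse, in 48.1% of the cells, and in 3 of the 4 mice most *Ctgf* UMIs came from a few cells that carried smooth muscle transcripts.

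YAP and its relative TAZ (gene symbol *Wwtr1*) are the output of the Hippo pathway. The kinases MST and LATS phosphorylate YAP and TAZ and keep them in the cytoplasm, and when the kinases are less active both enter the nucleus and drive transcription through DNA-binding TEAD proteins. In the endothelium the pathway is known for its response to cell shape, junctions and blood flow, and YAP activity is usually higher where flow is disturbed than where it is steady. *Cyr61* and *Ctgf* encode secreted matricellular CCN proteins that bind integrins, *Thbs1* encodes the matrix glycoprotein thrombospondin-1, *Amotl2* encodes an angiomotin family protein at cell junctions that can itself bind and hold back YAP, and *Ankrd1* encodes an ankyrin repeat protein best known from cardiac muscle.

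The study asked what the transcription factor EPAS1 (HIF-2α) does in arterial endothelium. Aortic cells of 4 mice were digested, sorted as CD31+ CD45- TO-PRO-3- cells (viable, with an endothelial surface marker and without a leukocyte marker) and sequenced by SORT-seq, which places 1 cell in each well of a plate and counts transcripts from their 3′ ends. Each mouse had 1 plate. The *Epas1* EC-KO mice (n = 2) carried floxed *Epas1* alleles (Epas1fl/fl) and Cre under the endothelial *Cdh5* promoter (Cdh5Cre/+), and the *Epas1* EC-WT mice (n = 2) carried the same floxed alleles without Cre (Cdh5+/+). By the methods of the study the Cre was the tamoxifen-inducible Cre-ERT2, tamoxifen was given at 6 weeks of age and the mice were used 2 weeks later. The mice were on a C57BL/6 background and matched for age and sex. Mice are called EC-KO 1, EC-KO 2, EC-WT 1 and EC-WT 2 here, as their labels number them.

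Of 1536 wells, 441 passed the filter (at least 1000 UMIs from nuclear genes and at most 25% mitochondrial UMIs), and these were 157, 98, 114 and 72 cells of EC-KO 1, EC-KO 2, EC-WT 1 and EC-WT 2 with between 566088 and 1088901 UMIs per mouse. The tables of all 4 mice use the same 384 well barcodes, so a barcode shared by 2 plates does not mark a shared cell. EC-WT 1 had the shallowest cells, with a median of 3779 UMIs against 5752.5 to 7419 in the other mice. The endothelial marker *Pecam1* was found in 94.9% to 100% of the cells, and *Ptprc*, which encodes CD45, had 1 UMI in all. The labels could not be checked on the targeted gene: *Epas1* stood at 2930 and 3148 CPM (UMIs scaled to a common total per mouse) in the EC-KO mice and at 3324 and 2351 CPM in the EC-WT mice, and a 3′ tag does not read an internal deletion. The files also held more kept cells from the EC-KO mice (255) than from the EC-WT mice (186), whereas the study's methods state more cells for EC-WT, in numbers near these the other way round. Whether the group labels were exchanged cannot be told from these files. Directions between the groups are given as labelled, and every sign would turn if they were.

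The sort held some cells with more smooth muscle than endothelial marker UMIs, called smooth muscle-dominated here: 13, 6, 3 and 2 cells, with 8 of the 441 cells within 2-fold of the boundary. The smooth muscle markers summed to 4890 and 6791 CPM in the EC-KO mice and to 974 and 1313 CPM in the EC-WT mice, and the fibroblast markers to 3549 and 2085 against 1217 and 1761 CPM. Both lists were higher in both EC-KO mice. The members are therefore also given without the smooth muscle-dominated cells, whereas the other gene lists are given over all kept cells. Leaving those cells out does not remove every such difference. *Dcn*, a fibroblast marker, stood at 909, 183, 95.1 and 76.4 CPM in the remaining endothelial-dominated cells, with both EC-KO mice above both EC-WT mice. The highest such cell held 393 of 911 *Dcn* UMIs in EC-KO 1, 67 of 138 in EC-KO 2, 19 of 61 in EC-WT 1 and 11 of 42 in EC-WT 2. The order without those cells was not tested. Of 6 tested fibroblast markers, 5 had a positive log2 fold change in EC-KO over EC-WT, over all kept cells. *Mfap5* did not, at 449 and 528 CPM in EC-KO against 498 and 514 CPM in EC-WT. Cells with 3 or more *Dcn* UMIs were left out only in an alternative. The part of fibroblast transcripts in the members' values was not tested. Immune markers stayed at 4.62 to 12.9 CPM and lymphatic markers at 47.8 to 74.2 CPM.

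For 3 of the 5 genes a RefSeq promoter (GRCm38.p6) was at hand, and the stretches with the core letters that TEAD proteins bind are shown, since these genes are grouped by a factor that acts through TEAD. The letters searched were CATTCC, on either strand (GGAATG on the other), in the 250 bases before the start site. Capitals mark those letters, and sequences run 5′ to 3′ on the gene's own strand. For *Cyr61* the whole window on the minus strand (chr3:145649986-145650235) is given, with the letters 103 to 98 bases before the start, and for *Amotl2* (plus strand, chr9:102717727-102717756) and *Ankrd1* (minus strand, chr19:36120037-36120066 and chr19:36119950-36119979) only the 30 bases around each match.
Cyr61: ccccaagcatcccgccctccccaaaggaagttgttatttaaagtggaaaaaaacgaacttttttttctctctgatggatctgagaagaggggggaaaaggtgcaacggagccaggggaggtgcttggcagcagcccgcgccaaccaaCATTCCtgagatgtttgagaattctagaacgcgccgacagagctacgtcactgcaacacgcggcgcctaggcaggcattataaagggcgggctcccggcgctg
Amotl2: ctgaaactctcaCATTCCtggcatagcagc
Ankrd1, first match: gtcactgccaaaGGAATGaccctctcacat
Ankrd1, second match: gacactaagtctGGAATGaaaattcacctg
The *Amotl2* match lies 65 to 60 bases before the start, and the *Ankrd1* matches lie 210 to 205 and 123 to 118 bases before it, in the other orientation. These distances are from the RefSeq start. GENCODE places the first base of both genes further upstream, so that the *Amotl2* and *Ankrd1* matches lie inside the annotated genes and their windows overlap annotated 5′ UTR. The same letters occur in 12.6% of all 32851 mouse promoter windows of this length, so a match is a description of sequence and not a binding site. None of the 3 windows held the AP-1 letters TGANTCA (6.75% of all windows) or a CArG box (1.47%).

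By the GENCODE M21 annotation of GRCm38, *Cyr61* (now *Ccn1*) is a gene of 5 exons at chr3:145646976-145649981 on the minus strand, and *Ctgf* (now *Ccn2*) is a gene of 5 exons at chr10:24595442-24598683 on the plus strand. *Thbs1* has 22 exons at chr2:118111876-118127133 on the plus strand, *Amotl2* has 11 exons at chr9:102716672-102733418 on the plus strand, and *Ankrd1* has 9 exons at chr19:36111961-36120099 on the minus strand.

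*Cyr61*, the first of the secreted CCN proteins, had 609 and 359 UMIs in EC-KO 1 and 2 and 123 and 265 UMIs in EC-WT 1 and 2. Scaled to the mouse's total this was 559, 422, 190 and 468 CPM in the same order, so EC-WT 1 stood lowest by far and EC-WT 2 lay between the EC-KO mice. At least 1 *Cyr61* UMI was found in 56.1%, 45.9%, 36.0% and 52.8% of the cells. Many cells held several: 34 cells of EC-KO 1 had 5 or more UMIs, against 14, 8 and 16 cells of the other mice. A single cell of EC-KO 2 held 125 of its 359 UMIs, and without the highest cell of each mouse the level was 503, 280, 175 and 421 CPM, so that EC-WT 2 then lay above EC-KO 2 by more. Only 7.08% of all *Cyr61* UMIs came from smooth muscle-dominated cells, and in the endothelial-dominated cells alone the level was 538, 442, 192 and 482 CPM.

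*Ctgf*, its close relative in the CCN family, had 253, 94, 19 and 82 UMIs, or 232, 110, 29.3 and 145 CPM, in EC-KO 1, EC-KO 2, EC-WT 1 and EC-WT 2. EC-WT 1 was again the lowest, and EC-WT 2 again lay between the EC-KO mice. The transcript was found in fewer cells than *Cyr61*, in 19.7%, 16.3%, 7.89% and 25%, and the 5 highest cells of each mouse held 70.4%, 78.7%, 78.9% and 79.3% of its UMIs. Smooth muscle-dominated cells were 24 of 441 cells and held 62.7% of all 448 *Ctgf* UMIs. By mouse this share was 66.8%, 58.5%, 5.26% and 68.3%, so that in EC-WT 1 nearly all of the few *Ctgf* UMIs came from endothelial-dominated cells. Without them the level was 83.9 and 51.7 CPM in the EC-KO mice and 28.1 and 47.3 CPM in the EC-WT mice, so that the groups no longer overlapped. That order rested on 1 endothelial-dominated cell of EC-KO 1, which held 50 of its 84 remaining UMIs: without the highest such cell of each mouse the values were 34.5, 36.6, 11.2 and 41.0 CPM, and EC-WT 2 was the highest. Over all kept cells the same step went the other way, to 177, 78.2, 12.7 and 52.6 CPM, and the EC-KO mice then both lay above the EC-WT mice.

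*Thbs1*, whose product binds CD47 and integrins and is a well-known inhibitor of angiogenesis, had 124, 133, 39 and 146 UMIs, or 114, 156, 60.1 and 258 CPM. Here the EC-WT mice were the extremes, EC-WT 1 at the bottom and EC-WT 2 at the top, with both EC-KO mice between them. The share of cells with a UMI followed the same order, at 19.1%, 21.4%, 11.4% and 40.3%. The highest cell of each mouse held 18 to 23 UMIs, and in EC-WT 1 that single cell held 18 of the 39. Endothelial-dominated cells alone gave 113, 172, 53.0 and 266 CPM, which left the order as it was.

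*Amotl2*, the regulator among the 5, was the most even. It had 219, 130, 95 and 112 UMIs, or 201, 153, 146 and 198 CPM, and was found in 48.4%, 52.0%, 33.3% and 48.6% of the cells. The highest mouse stood 1.37 times above the lowest, against 2.95 times for *Cyr61*, 4.29 times for *Thbs1* and 7.94 times for *Ctgf*. In endothelial-dominated cells alone these ratios were 1.46 for *Amotl2*, 2.81 for *Cyr61*, 5.01 for *Thbs1* and 2.99 for *Ctgf*, so that *Thbs1* and no longer *Ctgf* varied most. The 5 highest cells of a mouse held 29.2% to 41.1% of the *Amotl2* UMIs, against 34.5% to 61.3% of the *Cyr61* UMIs, with *Amotl2* the less concentrated in the EC-KO mice and *Cyr61* in the EC-WT mice. *Ankrd1* gave 0, 2, 0 and 0 UMIs, both of them in 1 smooth muscle-dominated cell of EC-KO 2, and 0 UMIs allow up to 2.76, 4.62 and 5.30 CPM in the other mice (3 UMIs in that mouse, a limit that covers counting error alone). *Ankrd1* was at or under that floor in every mouse, and no fold change is given for it.

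**Figure D1:**
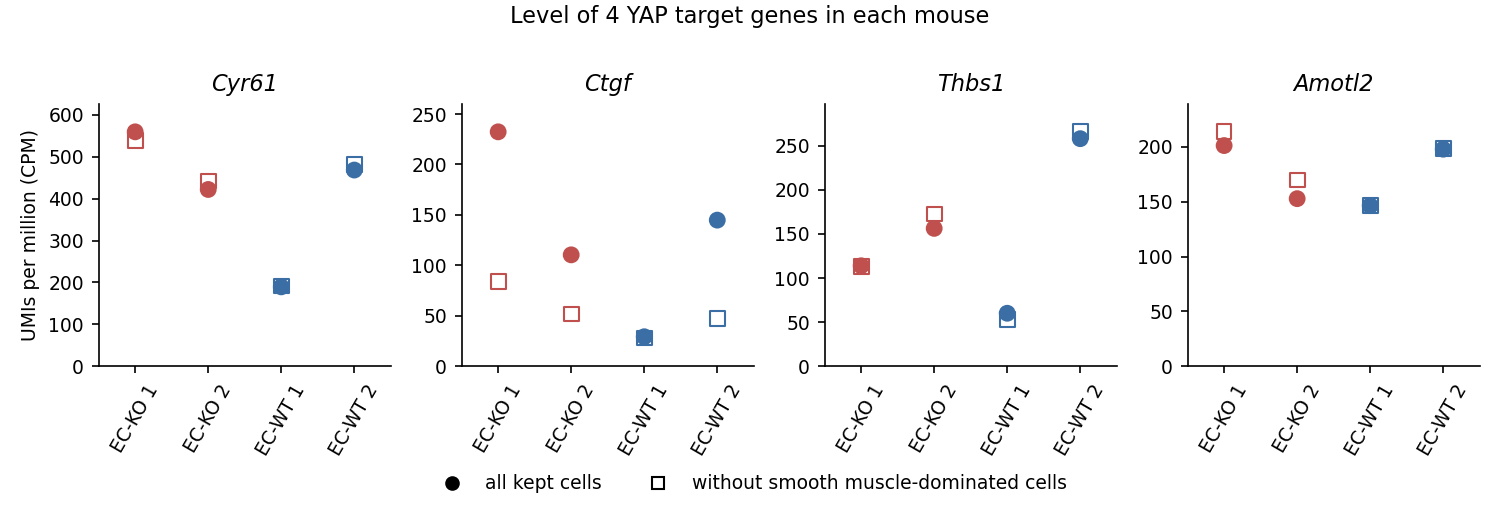
Level of *Cyr61*, *Ctgf*, *Thbs1* and *Amotl2* in CPM (vertical axis, from 0) in each of the 4 mice, with filled circles for all kept cells and open squares without smooth muscle-dominated cells, EC-KO in red and EC-WT in blue. EC-WT 1 is the lowest mouse in each panel, and only the *Ctgf* squares sit well below their circles, in EC-KO 1 (232 to 83.9), EC-KO 2 (110 to 51.7) and EC-WT 2 (145 to 47.3).

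In every mouse *Cyr61* stood first, and the order of the other 3 differed between mice. *Ctgf* came second in EC-KO 1, *Thbs1* in EC-KO 2 and EC-WT 2, and *Amotl2* in EC-WT 1. In the endothelial-dominated cells of EC-KO 1, *Ctgf* was instead the lowest of the 4, at 83.9 CPM against 113 for *Thbs1* and 214 for *Amotl2*. UMIs counted at the 3′ end do not grow with transcript length, but capture, 3′ end annotation and mapping can differ between genes, and this was not tested. The coactivators themselves varied less between mice than each of the 4 detected targets, *Yap1* at 118, 94.0, 111 and 101 CPM and *Wwtr1*, which encodes TAZ, at 321, 305, 305 and 376 CPM, or 1.26 and 1.23 times from the lowest to the highest mouse. EC-WT 1, the mouse with the lowest targets, was not the lowest for *Yap1*, and for *Wwtr1* it was the lowest by less than 1 CPM.

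Detection of *Cyr61*, *Thbs1* and *Amotl2* was more frequent in the deepest than in the shallowest endothelial-dominated cells of every mouse. For *Ctgf* it rose from 7.69% to 21.7% in EC-KO 1, from 3.45% to 15.4% in EC-WT 1 and from 0% to 42.3% in EC-WT 2. In EC-KO 2 *Ctgf* was found in 14.3% of the 7 cells with 1000 to 2000 UMIs and in 14.6% of the 41 cells with 8000 or more. Of the endothelial-dominated cells of EC-WT 1, *Amotl2* was found in 10.3% of the 29 cells with 1000 to 2000 UMIs and in 73.1% of the 26 cells with 8000 or more. With every cell thinned to 1000 UMIs the expected shares were 28.4%, 17.2%, 14.2% and 27.4% for *Cyr61*, 7.34%, 8.93%, 4.46% and 15.9% for *Thbs1* and 13.9%, 13.5%, 10.7% and 16.8% for *Amotl2*. For *Ctgf* they were 9.42%, 6.13%, 2.12% and 6.81%. EC-WT 1 remained the lowest mouse for each of these genes at equal depth, by a wider margin for *Ctgf* than for *Amotl2*.

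Most cells held a transcript of at least 1 of the 5 genes. Cells without any were 22.9% and 28.6% in EC-KO 1 and 2 and 42.1% and 23.6% in EC-WT 1 and 2. Cells with 4 of the genes at once were 7, 6, 2 and 9, or 4.46%, 6.12%, 1.75% and 12.5% of each mouse's cells, and no cell held all 5. EC-WT 2, with the fewest cells, thus had the most cells with 4.

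**Figure D2:**
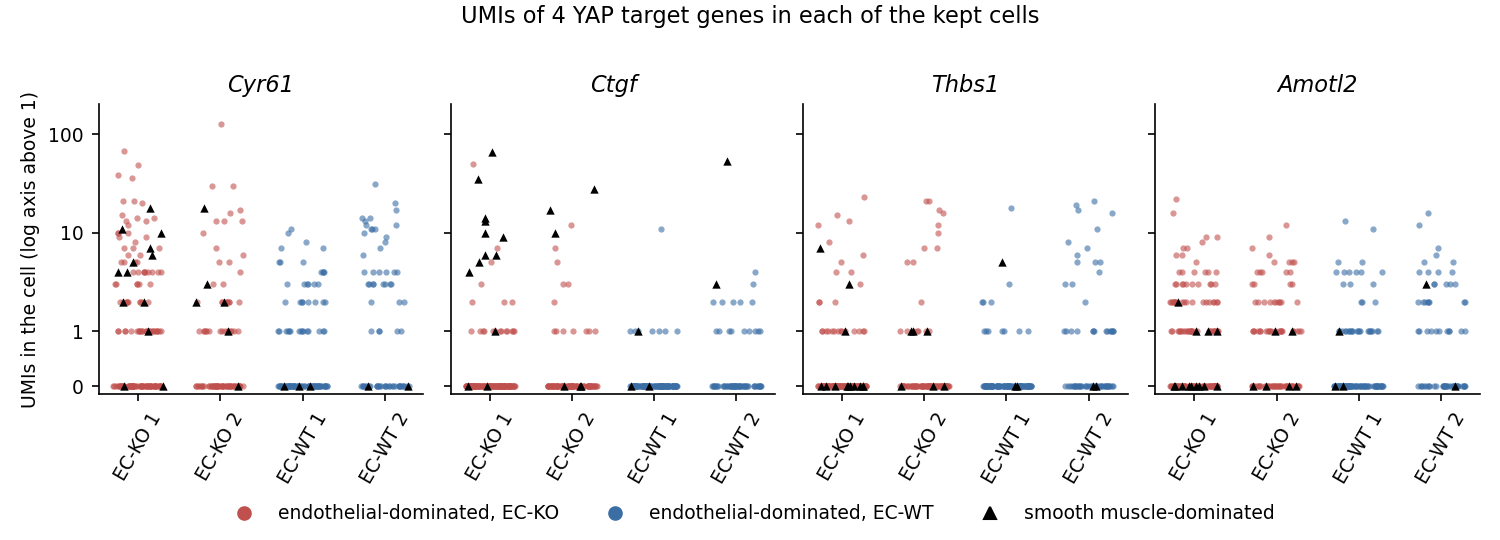
UMIs of *Cyr61*, *Ctgf*, *Thbs1* and *Amotl2* in each kept cell (vertical axis, logarithmic above 1), 1 point per cell and 1 column per mouse, with endothelial-dominated cells in red (EC-KO) or blue (EC-WT) and smooth muscle-dominated cells as black triangles. Most of the *Ctgf* points above 5 UMIs are triangles, and single cells reach 125 UMIs of *Cyr61* in EC-KO 2 and 66 UMIs of *Ctgf* in EC-KO 1.

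The 5 genes were then compared between the 2 classes of sorted cells, which were split on marker lists that hold none of them. Over all mice *Ctgf* stood at 1347 CPM in the 24 smooth muscle-dominated cells (70.8% of them with a UMI) and at 56.7 CPM in the 417 endothelial-dominated cells (13.7%). *Amotl2* went the other way, with 52.7 against 185 CPM. *Cyr61* stood at 460 and 428 CPM in the 2 pooled classes and *Thbs1* at 91.1 and 144 CPM. *Nov*, another CCN gene, stood at 1606 against 10.2 CPM, and *Yap1* stood at 101 and 108 CPM.

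Within each mouse, *Ctgf* was at 1938, 565, 131 and 3390 CPM in the smooth muscle-dominated cells of EC-KO 1, EC-KO 2, EC-WT 1 and EC-WT 2, each above the 83.9, 51.7, 28.1 and 47.3 CPM of the endothelial-dominated cells. In EC-WT 1 the smooth muscle-dominated value came from 1 UMI in 3 cells. *Amotl2* was at 57.3, 20.6, 131 and 182 CPM in the smooth muscle-dominated cells, from 5, 2, 1 and 3 UMIs, each below the 214, 170, 147 and 198 CPM of the endothelial-dominated cells, though narrowly in the EC-WT mice. Over the 3 mice with at least 3 cells in each class, the log2 ratio of smooth muscle-dominated over endothelial-dominated cells averaged 3.33 ± 1.20 for *Ctgf* (SD, n = 3, higher in 3 of 3 mice) and −1.64 ± 1.39 for *Amotl2* (SD, n = 3, lower in 3 of 3 mice). Both gave p = 0.25 in a 2-sided exact sign-flip permutation test over mice, the smallest that 3 mice allow. Of 9492 genes, 6.51% were higher and 36.3% lower in all 3 mice by the same ratio, so the *Amotl2* direction was a common one.

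*Cyr61* did not keep 1 direction between the classes. It was at 803 against 538 CPM in EC-KO 1 and at 267 against 442 CPM in EC-KO 2, and it had 0 UMIs in the 3 and the 2 smooth muscle-dominated cells of EC-WT 1 and EC-WT 2. *Thbs1* stood at 126, 30.8, 657 and 0 CPM in the smooth muscle-dominated cells, and the 657 CPM of EC-WT 1 were 5 UMIs of 1 cell. Its log2 ratio averaged 0.44 ± 2.99 (SD, n = 3, exact sign-flip permutation p = 0.75), a mean smaller than the spread between mice.

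**Figure D3:**
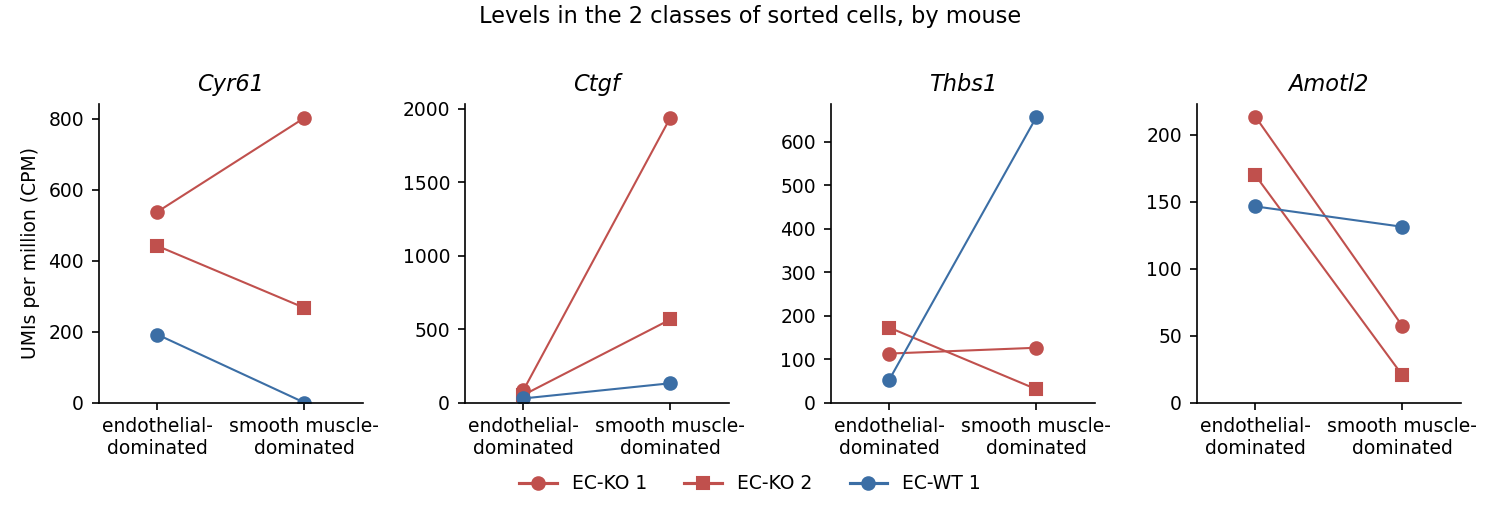
Level in CPM (vertical axis, from 0) of *Cyr61*, *Ctgf*, *Thbs1* and *Amotl2* in endothelial-dominated and smooth muscle-dominated cells, with 1 line for each of the 3 mice that had at least 3 cells of each class. All *Ctgf* lines go up, to 1938, 565 and 131 CPM, and all *Amotl2* lines go down, to 57.3, 20.6 and 131 CPM, while the *Cyr61* and *Thbs1* lines differ in direction.

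The comparison the study's design implies, EC-KO against EC-WT, gave no difference past the threshold for any of the 5 genes. The UMIs of each mouse were summed over its kept cells and tested with edgeR across 8385 genes, of which 10 (0.119%) were called, all of them higher in EC-KO, and none of the 4 members tested was among them. None of the 4 reached an unadjusted p of 0.05 either, which 6.6% of the genes did. *Ankrd1* was too low to be tested. All 4 overlapped between the groups in CPM, whereas 36.4% of the genes tested did not overlap. The called genes were *Tagln*, *Myh11*, *Myl9*, *Acta2*, *Mylk*, *Cnn1* and *Itga8*, which are smooth muscle markers, and *Aoc3*, *Ogn* and *Igfbp7*. Thus 7 of 10 tested smooth muscle markers were called, against 0 of 6 fibroblast, 0 of 14 endothelial and 0 of 2 lymphatic markers (5, 2 and 0 at an unadjusted p under 0.05), with no immune marker abundant enough to be tested. Without smooth muscle-dominated cells 0 of 8116 genes were called (445, or 5.48%, at an unadjusted p under 0.05).

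Mean levels of *Cyr61* were 491 ± 97.2 CPM in EC-KO and 329 ± 197 CPM in EC-WT (SD, n = 2 each, 2-sided exact permutation p = 0.667, where the smallest that 2 mice against 2 can give is 0.33). The edgeR log2 fold change was 0.63 with a standard error of 0.32 (adjusted p = 0.760). It was 1.39 without EC-WT 2, where edgeR gave an adjusted p of 1.1e-05, and 0.13 without EC-WT 1. With an EC-WT mouse left out, here and below, edgeR takes the spread within groups from the EC-KO mice and the trend over genes, and the lone EC-WT mouse is assumed to vary like them, so such a p says no more than how that 1 mouse compares. Without smooth muscle-dominated cells it was 0.59 (edgeR, adjusted p = 0.886), and weighting each cell equally instead of each UMI also gave 0.13. The sign of the *Cyr61* difference was the same under each of these, and its size differed most with which EC-WT mouse was left out.

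*Ctgf* averaged 171 ± 86.2 CPM in EC-KO and 87.1 ± 81.7 CPM in EC-WT (SD, n = 2 each, exact permutation p = 0.667). The log2 fold change was 1.07 with a standard error of 0.51 (edgeR, adjusted p = 0.760), and 0.92 without smooth muscle-dominated cells (adjusted p = 0.882, unadjusted p = 0.0205). Without the highest cell of each mouse, the log2 ratio of the group means in CPM was 1.96, with no test. With no filter on low counts the edgeR value was 1.08, and edgeR then called it (adjusted p = 0.00501). Leaving out EC-WT 2 gave 2.58 (edgeR, adjusted p = 2.4e-10 against a lone mouse with 19 *Ctgf* UMIs), and leaving out EC-WT 1 or EC-KO 1 gave 0.32 or 0.39. The share of cells with a *Ctgf* UMI differed by 1.59 percentage points in favour of EC-KO, and by −1.02 points among the endothelial-dominated cells (exact permutation p = 1 for both). With cells thinned to 1000 UMIs the shares were 7.77% ± 2.33 against 4.47% ± 3.31 (SD, n = 2 each), 3.31 points apart and overlapping (exact permutation p = 0.667). In the endothelial-dominated cells, unthinned, *Ctgf* was the only member whose CPM did not overlap between the groups, at 67.8 ± 22.7 against 37.7 ± 13.6 CPM (SD, n = 2 each, exact permutation p = 0.33), an order that rested on the 1 cell of EC-KO 1 with 50 UMIs. The smooth muscle marker *Acta2* was also higher in both EC-KO mice in the endothelial-dominated cells, at 268 and 602 CPM against 63.9 and 147 CPM, and its part in the *Ctgf* difference was not tested. Of the 8116 genes tested there, 35.3% did not overlap and 15.4% did so with EC-KO above EC-WT.

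*Thbs1* averaged 135 ± 30.0 CPM in EC-KO and 159 ± 140 CPM in EC-WT (SD, n = 2 each, exact permutation p = 1), with the EC-KO mice inside the range of the EC-WT mice. Its log2 fold change was −0.18 with a standard error of 0.45 (edgeR, adjusted p = 0.974), and −0.11 without smooth muscle-dominated cells (adjusted p = 0.996). The sign turned with the EC-WT mouse left out: −0.89 without EC-WT 1 and 1.17 without EC-WT 2, each against a lone EC-WT mouse (edgeR, adjusted p = 0.0378 and 0.0235). EC-KO 2 and EC-WT 1 were the only mice whose libraries carried the same code in their deposited names, read here as the flow cell. The sample labels do not name a flow cell. Between them alone *Thbs1* stood at 156 against 60.1 CPM and *Cyr61* at 422 against 190 CPM. *Ctgf* stood at 110 against 29.3 CPM and *Amotl2* at 153 against 146 CPM, with no test since each group then had 1 mouse.

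*Amotl2* averaged 177 ± 34.2 CPM in EC-KO and 172 ± 36.4 CPM in EC-WT (SD, n = 2 each, exact permutation p = 0.667), a difference of 4.81 CPM that was smaller than the spread in either group. The log2 fold change was 0.09 with a standard error of 0.23 (edgeR, adjusted p = 0.974) and lay between −0.15 and 0.30 with each mouse left out in turn. It was 0.20 without smooth muscle-dominated cells (adjusted p = 0.956). Its share of positive cells was 9.25 percentage points higher in EC-KO, and this was −0.0078 points once all cells were thinned to 1000 UMIs.

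**Figure D4:**
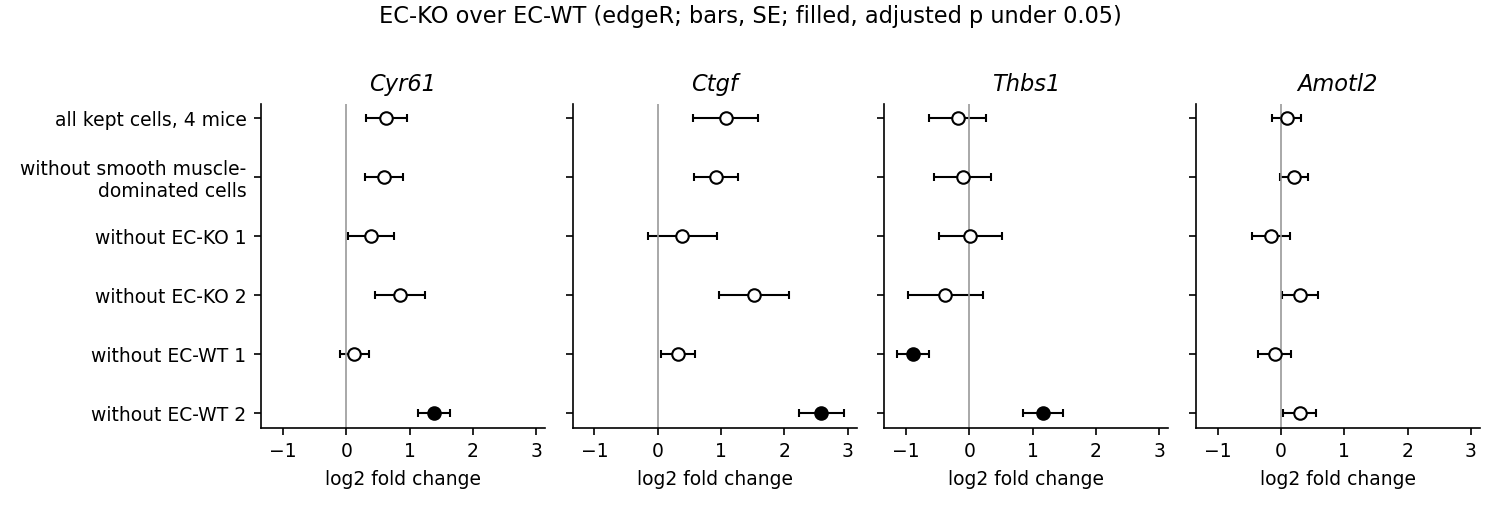
The log2 fold change of *Cyr61*, *Ctgf*, *Thbs1* and *Amotl2* in EC-KO over EC-WT (horizontal axis) from edgeR, with bars for the standard error, for all 4 mice, without smooth muscle-dominated cells and without each mouse in turn. Filled points passed an adjusted p of 0.05, which happened without EC-WT 2 for *Cyr61* (1.39), *Ctgf* (2.58) and *Thbs1* (1.17) and without EC-WT 1 for *Thbs1* (−0.89), and in neither of the fits shown with all 4 mice. Where an EC-WT mouse is left out, the other is assumed to vary like the EC-KO mice.

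Other genes of the pathway were read from the same fit, with the median log2 fold change of all 8385 genes at −0.01. The share of genes at an unadjusted p under 0.05 was above the 6.6% of all genes in each list below except the flow-responsive genes, and with so few genes a list this is given as a count. Of 21 tested genes of the Hippo and YAP machinery, 0 were called in either direction by edgeR (3 at an unadjusted p under 0.05) and their median log2 fold change was 0.03. *Wwtr1* was at −0.08, *Amotl1*, a relative of *Amotl2*, at 0.11, *Taok1*, a kinase upstream of MST, at 0.36 and *Ptpn14*, a phosphatase that holds YAP in the cytoplasm, at −0.48 (adjusted p = 0.713). Of 13 tested other genes reported as YAP targets, 0 were called (3 at an unadjusted p under 0.05), with a median of 0.05. This list shares genes with the machinery list, among them *Lats2* and *Ptpn14*. *Ptpn14* (edgeR, unadjusted p = 0.0346) is counted in both. The 4 most abundant of these, *Nt5e*, *Ccdc80*, *Crim1* and *Myof*, lay between −0.17 and 0.13. The receptors that CCN proteins and thrombospondins bind gave 0 called of 10 (1 at an unadjusted p under 0.05), *Itgb1* at 0.01, *Cd47* at 0.12, *Lrp6* at −0.25 and *Itga5* at −0.54.

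Among relatives of the secreted members, 2 of 8 were abundant enough to be tested, and neither was called, though both had an unadjusted p under 0.05. *Nov* stood at 182, 140, 6.16 and 77.7 CPM in EC-KO 1, EC-KO 2, EC-WT 1 and EC-WT 2, a log2 fold change of 2.04 with a standard error of 0.56 (edgeR, adjusted p = 0.411), and *Thbs2*, a second thrombospondin, was at 1.68 (adjusted p = 0.635). *Comp* and *Thbs3* averaged 8.37 and 5.09 CPM over the mice and were too low for the test. Both EC-KO mice lay above both EC-WT mice for *Nov*, the order that the smooth muscle markers had, and 91.8% of its UMIs came from smooth muscle-dominated cells. In the endothelial-dominated cells the groups overlapped for *Nov*, at 11.6 ± 3.32 against 7.93 ± 6.80 CPM (SD, n = 2 each). Immediate early and heat shock genes that tissue dissociation can raise had 0 called of 18 (3 at an unadjusted p under 0.05) and a median of 0.26. The heat shock genes *Hsp90aa1* and *Hspb1* were at −0.01 and 0.24, and the immediate early genes *Jun* and *Jund* at 0.18 and −0.22. Of 10 tested flow-responsive genes 0 were called (0 at an unadjusted p under 0.05), and *Bmp4* was at −0.17, *Klf2* at 0.55, *Thbd* at 0.09 and *Klf4* at 0.45. Of 14 genes of the actin cytoskeleton 1 was called, *Myl9* at 2.17 (adjusted p = 0.0035), which encodes a myosin light chain of smooth muscle, and 5 had an unadjusted p under 0.05. *Actg1* was at −0.06, *Actb* at 0.13, *Zyx* at 0.02 and *Flna* at 0.48.

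How far cells with more of one member had more of another differed between mice. Pearson correlations across the cells of each mouse, on log2(UMIs per 10000 + 1), are given as a description over the 72 to 157 cells of a mouse, which share a library and differ in depth. *Cyr61* and *Thbs1* had the highest mean, 0.29 over the 4 mice, from −0.01 in EC-WT 1 to 0.62 in EC-KO 2. In cells with at least 4000 UMIs this pair ranged from 0.27 in EC-WT 1 to 0.65 in EC-KO 2. *Cyr61* and *Ctgf* averaged 0.23 (0.04 to 0.42), *Thbs1* and *Amotl2* 0.20 (0.14 to 0.28), *Ctgf* and *Thbs1* 0.19 (−0.05 to 0.50), *Cyr61* and *Amotl2* 0.19 (0.06 to 0.43), and *Ctgf* and *Amotl2* 0.05 (−0.04 to 0.15). Without smooth muscle-dominated cells *Ctgf* and *Amotl2* averaged 0.14 (0.05 to 0.26). EC-KO 2 had the highest value in each of the 4 pairs that join *Cyr61* to another member or *Ctgf* to *Thbs1*. The median over all 3186 genes compared was 0.02 for *Cyr61*. For *Cyr61* and the coactivators the mean was 0.05 with *Yap1* and 0.09 with *Wwtr1*, little above that median. Correlations of the other members with the coactivators are not given here.

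The genes most alike were then named among all genes with a UMI in at least 20% of the cells of every mouse. *Edn1*, which encodes the vasoconstrictor endothelin-1, was first for *Thbs1* (mean r 0.46, from 0.29 to 0.69) and first for *Cyr61* (0.39, from 0.10 to 0.53). *Bmp4*, a ligand of the BMP pathway, was second for both, at 0.35 and 0.37, and *Apoe*, which encodes a lipoprotein component, came next for both, at 0.33. *Tmsb10* and *Tm4sf1* followed for *Thbs1* (both 0.32), and *Gabarapl1* (0.28) and *Tinagl1* (0.27) for *Cyr61*. For *Amotl2* the list was *Bmp4* (0.29), *Serpinb6b* (0.29), *Gcnt1* (0.28), *Tmem158* (0.26) and *Tm4sf1* (0.26).

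*Ctgf* had other neighbours. *Acta2* (0.43), which encodes smooth muscle actin, *Igfbp7* (0.39), *Filip1l* (0.35), *Flna* (0.35) and the collagen gene *Col3a1* (0.31) were most like it over all cells. That list depended on the measure. By Spearman correlation it was *Cyr61* (0.30), *Filip1l* (0.28), *Slmap* (0.28), *Lhfp* (0.28) and *Rbms3* (0.24). In the endothelial-dominated cells alone the Pearson list was *Cyr61* (0.29), *Cxcl12* (0.28), *Edn1* (0.27), *Txndc5* (0.21) and *Lphn2* (0.20). At the other end of the list for *Thbs1* stood *Klf2*, which encodes a transcription factor that steady flow induces, with the lowest mean of all 3187 genes (−0.26, from −0.33 to −0.18). Its relative *Klf4* had −0.19, rank 3182 of 3187.

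These pairs can be read as levels, shown in full for *Thbs1*. Endothelial-dominated cells with a *Thbs1* UMI (27, 18, 12 and 29 cells) had *Edn1* at 713, 565, 334 and 467 CPM, against 201, 74.3, 189 and 196 CPM in the cells without. *Edn1* was thus higher in the cells with *Thbs1* in each mouse, and least so in EC-WT 1. *Bmp4* stood at 3311, 3349, 1966 and 3090 CPM in cells with and at 1456, 1051, 1328 and 1334 CPM in cells without a *Thbs1* UMI, and *Apoe* at 3485, 6315, 3443 and 3396 against 1748, 2012, 1394 and 2128 CPM. *Klf2* went the other way, at 464, 1004, 693 and 516 CPM in cells with against 854, 1796, 1056 and 610 CPM in cells without. *Klf4* was lower in the cells with *Thbs1* in 3 of 4 mice, at 520, 747 and 412 against 779, 1129 and 619 CPM, and in EC-WT 1 it was at 751 against 705 CPM. *Epas1* itself was at 2432, 2539, 2627 and 2391 CPM in cells with a *Thbs1* UMI and at 3289, 3592, 3500 and 2446 CPM in cells without. Cells with a *Thbs1* UMI were also deeper in each mouse, with medians of 7306, 8288, 4917 and 8595 UMIs against 5381, 6907.5, 3750 and 4496 UMIs. Split by a UMI of the other members, *Edn1* was higher in the positive cells in 4 of 4 mice for *Cyr61* and *Amotl2* and in 3 of 4 for *Ctgf* (140 against 230 CPM in EC-WT 1), and *Klf2* was lower in 4 of 4 for *Amotl2*, in 3 of 4 for *Cyr61* (1041 against 925 CPM in EC-WT 1) and in 2 of 4 for *Ctgf*. With the log10 depth of the cell held constant, the mean correlation of *Thbs1* was 0.46 with *Edn1* and −0.27 with *Klf2*.

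**Figure D5:**
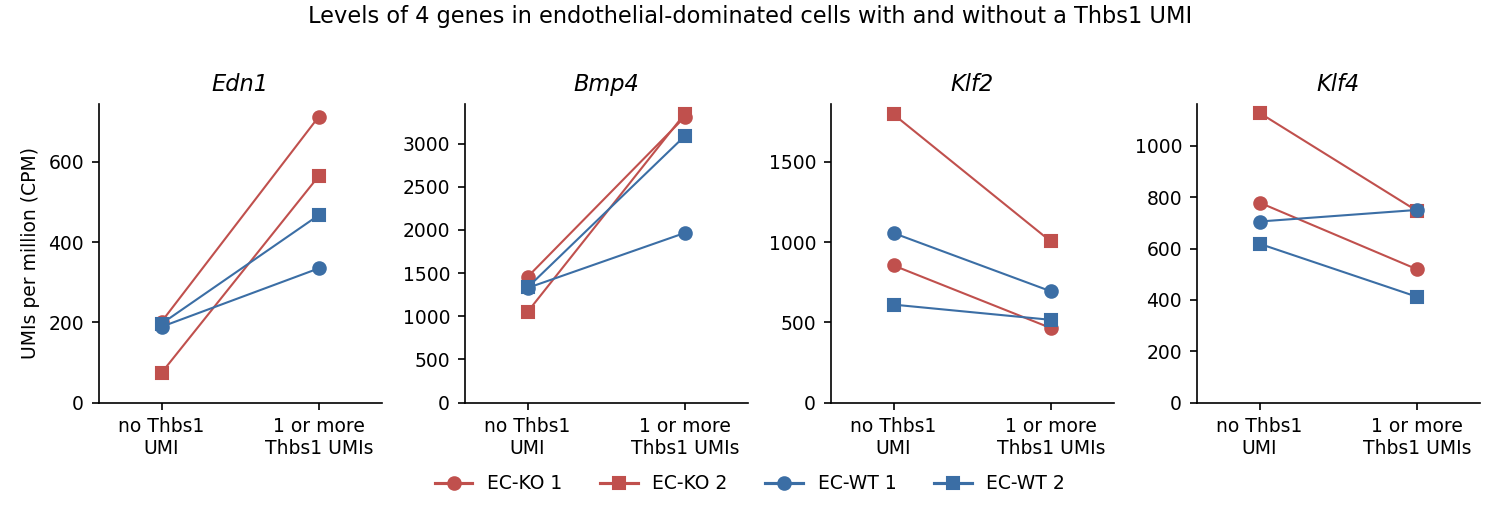
Level in CPM (vertical axis, from 0) of *Edn1*, *Bmp4*, *Klf2* and *Klf4* in endothelial-dominated cells without and with a *Thbs1* UMI, 1 line per mouse, EC-KO in red and EC-WT in blue. All 4 lines go up for *Edn1* and *Bmp4* and down for *Klf2*, and for *Klf4* EC-WT 1 goes up, from 705 to 751 CPM.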

How the data were processed

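The authors deposited 3 tables per plate: raw UMI counts, raw read counts and estimated transcript counts, which are expected counts obtained from the UMI counts by a correction for UMIs drawn more than once among 4096. The submitters' processing notes name BWA 0.7.15, Seurat and the builds GRCm38 and mm10. The deposited UMI counts were used here as counts, and the estimated transcript counts only as an alternative. Spike-in and mitochondrial entries were left out of totals. Wells with at least 1000 nuclear UMIs and at most 25% mitochondrial UMIs were kept, since a list of the study's cells was not used here. The 4 mice hold 566088 to 1088901 kept UMIs, which limits what low genes can show.

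UMIs were summed per mouse, since cells of a mouse are not replicates, and tested with edgeR 4.0.16 in R 4.3.3 (TMM, filterByExpr, quasi-likelihood test, Benjamini-Hochberg over 8385 genes, called at 0.05). On simulated counts for these genes it recovered 192 of 200 genes changed by 2 on the log2 scale and called 7 others. The changed genes were drawn from the more abundant ones only. Changes as small as those of the members over all 4 mice were not simulated. Single values were compared by exact permutation over mice with scipy 1.17.1. Shares were also computed with cells thinned to 1000 UMIs. Smooth muscle-dominated cells were those whose smooth muscle marker UMIs exceeded their endothelial marker UMIs, and 1 UMI, divided between the classes by their totals, was added before a log2 ratio of classes. The study describes littermate controls without saying which mice share a litter, and p-values measure the spread between these 4 mice.

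The genes named are the 5 members, the called genes and the 4 most abundant of each list, and the 5 most correlated genes of each member found in at least 10% of the cells. The genes read in cells with a *Thbs1* UMI were chosen after correlations were seen, as were the alternatives that weight cells equally, leave out each mouse's highest cell, or leave out a mouse together with smooth muscle-dominated cells. The members and all lists were chosen with earlier results of these data known, and an earlier analysis of these cells had already grouped *Thbs1*, *Cyr61*, *Edn1*, *Bmp4* and *Apoe*, so their correlations are no independent support. Alternatives were other scalings (library size, DESeq2 1.42.0), filters, cell limits, the replicate number as a block, and leaving out each mouse. The promoter windows and positions are from RefSeq and GENCODE M21. Immediate early and heat shock genes were listed because enzymatic digestion precedes the sort.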

Additional observations from a re-analysis of the deposited data

Results flagged for a closer look

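The wells that failed the filter also held UMIs of these genes, in data that no comparison above used. Over the 4 plates they held 49 UMIs of *Cyr61*, 10 of *Ctgf*, 20 of *Thbs1* and 21 of *Amotl2*, and 0 of *Ankrd1*. These wells numbered 227, 286, 270 and 312 in EC-KO 1, EC-KO 2, EC-WT 1 and EC-WT 2. Relative to the nuclear UMIs of the same wells, *Cyr61* stood at 291, 318, 388 and 271 CPM there, so that EC-WT 1, the lowest mouse among kept cells, was the highest among the discarded wells, from 16 UMIs. *Amotl2* stood at 182, 196, 97.0 and 90.4 CPM, from 5, 8, 4 and 4 UMIs. Empty wells were not told apart from wells with a poor cell.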

How the results depend on the processing

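Of 187 values under alternatives to the 23 results, 153 kept their direction and side of the threshold or stayed within the spread, 18 turned in sign, 11 moved further than that and 5 passed the threshold that the reported value missed. The exact tests of shares of cells and of class ratios cannot pass the threshold with so few mice. Those values could therefore change only in sign. A value that turned in sign is counted only there, even where it also passed the threshold, as *Thbs1* did without EC-WT 2. The 10 genes called became 17 by library size only, 115 with no filter on low counts (where edgeR also called *Ctgf*, at 1.08 with adjusted p = 0.00501), 22 with a minimum of 2000 UMIs, 17 with no mitochondrial limit, 25 without cells with 3 or more *Dcn* UMIs, 0 without smooth muscle-dominated cells (445 at an unadjusted p under 0.05), 0 without cells over 3 times the median UMIs (461 at an unadjusted p under 0.05) and 4 to 129 with a mouse left out, 117 without EC-WT 2 and 129 without EC-WT 1. DESeq2 called 12. With each mouse left out the log2 fold change ranged from 0.13 to 1.39 for *Cyr61*, 0.32 to 2.58 for *Ctgf*, −0.89 to 1.17 for *Thbs1* and −0.15 to 0.30 for *Amotl2*. Without smooth muscle-dominated cells as well, it ranged from 0.082 to 1.37, 0.48 to 1.31, −0.86 to 1.42 and −0.011 to 0.41, and edgeR called *Cyr61* (adjusted p = 0.000204) and *Thbs1* (0.0143) without EC-WT 2, against a lone EC-WT mouse with the spread taken from the EC-KO mice. Nothing in the labels pairs the mice by replicate number. Deviations of same-numbered mice from their group means correlated at −0.049. With 2 mice per group both replicate numbers give that same value, so it cannot tell whether mice were paired. With the replicate block, 8 genes were called and *Thbs1* turned to 0.040, with no other member changing sign. Between EC-KO 2 and EC-WT 1, which shared the code read as the flow cell, *Thbs1* was at 1.34. Differences in shares of cells ranged, with a mouse left out, from −1.79 to 15 points for *Cyr61*, −6.96 to 10.1 for *Ctgf*, −20.0 to 8.86 for *Thbs1* and 1.61 to 16.9 for *Amotl2*. They turned to −0.458 for *Ctgf* with a minimum of 2000 UMIs, to −1.02 for *Ctgf* without smooth muscle-dominated cells and to −0.0078 for *Amotl2* after thinning. The class ratio of *Thbs1* was −1.04 with a minimum of 2000 UMIs and −1.12 to 1.86 with a mouse left out, and those of *Ctgf*, *Amotl2* and *Cyr61* were then 2.75 to 3.95, −2.39 to −1.01 and −3.35 to −0.07. Without each mouse's highest cell, the log2 ratio of *Ctgf* in EC-KO over EC-WT was 1.96. All 24 alternative correlations of members stayed within 1 SD over mice, which was wide for some pairs (0.057 to 0.26). The cause of these changes was not tested. *Ankrd1* was at or under the floor of these counts, and *Ctgf* in EC-WT 1 rested on 19 UMIs.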

Other observations

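Among the endothelial-dominated cells, each member was also set beside the lists as a description, by the median over a list's genes of their mean correlation over the 4 mice. For *Cyr61* it was 0.12 with 7 other reported YAP targets (6 of 7 above 0), 0.06 with 12 genes of the Hippo and YAP machinery (9 of 12 above 0), 0.01 with 12 immediate early and heat shock genes (7 of 12 above 0) and 0.17 with 3 fibroblast markers (2 of 3 above 0). For *Thbs1* the same medians were 0.07 (6 of 7), −0.02 (5 of 12), −0.05 (2 of 12) and 0.14 (2 of 3). For *Ctgf* they were −0.0085 (3 of 7), −0.0017 (6 of 12), −0.0058 (6 of 12) and 0.03 (2 of 3), and for *Amotl2* 0.08 (7 of 7), 0.05 (9 of 12), 0.02 (9 of 12) and 0.09 (3 of 3). The median with the 3 fibroblast markers was above that with the 7 other reported targets for *Cyr61*, *Thbs1*, *Ctgf* and *Amotl2*. The gap was narrow for *Amotl2*, and no difference between the lists was tested. The 1 smooth muscle marker compared was at 0.13 for *Cyr61*, 0.05 for *Thbs1*, 0.04 for *Ctgf* and 0.04 for *Amotl2*. The part of other cells' transcripts in these values was not tested. Over all genes compared in these cells, the medians were 0.024 for *Cyr61*, 0.012 for *Ctgf*, 0.0023 for *Thbs1* and 0.038 for *Amotl2*.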
